A study of Mus musculus with 12 samples.

Results

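Steroid hormone receptors and early estrogen targets were followed through mouse endometrial epithelial organoids, cultures grown from the epithelial lining of the uterus. The 8 genes were chosen by symbol, and all 8 were present among the 26264 genes of the count files and among the 16465 that were tested. They are the estrogen receptors Esr1 and Esr2, the progesterone receptor Pgr, the glucocorticoid receptor Nr3c1, the mineralocorticoid receptor Nr3c2, the membrane receptor Gper1, and Greb1 and Susd3, which are known as early estrogen-responsive genes in breast cancer cells.

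The 12 libraries formed 4 groups of 3: wild type (WT) and Esr1 knockout (KO), each kept without the hormone (untreated) or given estrogen (treated). All groups were organoids at passage 3, grown in Cultrex with expansion medium. The labels do not give the Esr1 allele or the deleted exons, any Cre driver, the strain, the age of the mice behind each library, or the form, dose and duration of estrogen. They also do not say whether the 3 libraries of a group came from separate mice or cultures, so p-values measure the spread between these libraries, which may be technical. The submitters noted that organoids of neither genotype responded to estrogen.

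Steroid receptors of the nuclear type sit in the cell bound to chaperones, change shape when the hormone binds, and then bind DNA as pairs and recruit cofactors. In the uterus, estrogen acts mainly through estrogen receptor alpha, the product of Esr1. This receptor raises the progesterone receptor, and progesterone in turn restrains the growth response to estrogen. Estrogen receptors recognise inverted repeats of a short motif unit, whereas the receptors for progesterone, glucocorticoids and mineralocorticoids share another response element.

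The promoters of 4 genes that differed between genotypes are shown, so that their receptor motifs can be read. RefSeq promoters (build GRCm38.p6) matched 7 of the 8 genes, and the 250 bases before each start were searched on both strands. Capitals mark the estrogen response motif unit, GGTCA or its reverse complement TGACC. Greb1 has 2 annotated starts, at the ends of chr12:16800887-16801136 (minus strand) and chr12:16757240-16757489 (minus strand). Pgr is shown for chr9:8899583-8899832 (plus strand), Susd3 for chr13:49248295-49248544 (minus strand) and Esr2 for chr12:76177260-76177509 (minus strand).
Greb1, first start: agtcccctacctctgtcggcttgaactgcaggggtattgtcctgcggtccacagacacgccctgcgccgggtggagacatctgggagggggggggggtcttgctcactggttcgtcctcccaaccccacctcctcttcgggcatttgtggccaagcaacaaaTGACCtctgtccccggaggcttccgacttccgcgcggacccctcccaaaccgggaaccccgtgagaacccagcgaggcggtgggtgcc
Greb1, second start: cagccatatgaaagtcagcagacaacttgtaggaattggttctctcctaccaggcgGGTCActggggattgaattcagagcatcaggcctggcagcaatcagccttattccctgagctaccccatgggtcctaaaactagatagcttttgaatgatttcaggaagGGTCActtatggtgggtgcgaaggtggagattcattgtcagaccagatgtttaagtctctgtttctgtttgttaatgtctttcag
Pgr: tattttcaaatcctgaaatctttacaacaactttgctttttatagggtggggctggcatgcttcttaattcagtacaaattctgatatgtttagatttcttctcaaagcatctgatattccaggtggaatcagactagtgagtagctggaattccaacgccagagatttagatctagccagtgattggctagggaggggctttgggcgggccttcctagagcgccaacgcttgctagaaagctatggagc
Susd3: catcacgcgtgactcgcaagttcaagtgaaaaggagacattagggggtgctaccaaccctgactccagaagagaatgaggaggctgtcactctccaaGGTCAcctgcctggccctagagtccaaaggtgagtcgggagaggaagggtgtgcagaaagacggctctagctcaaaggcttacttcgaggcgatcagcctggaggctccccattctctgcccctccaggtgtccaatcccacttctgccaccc
Esr2: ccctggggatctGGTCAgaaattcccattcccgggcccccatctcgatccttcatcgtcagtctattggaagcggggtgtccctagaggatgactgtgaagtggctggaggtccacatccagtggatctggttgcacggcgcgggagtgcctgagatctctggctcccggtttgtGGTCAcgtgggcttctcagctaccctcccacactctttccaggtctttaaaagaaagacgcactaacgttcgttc
Greb1 held 1 unit before its first start and 2 before its second, Susd3 held 1, Esr2 held 2 and Pgr held 0. Among the matched genes not shown, Esr1 held 0 before each of its starts and Gper1 held 0. Nr3c2, for which no difference between genotypes was called, held 2. A unit stood in 35.2% of all 32851 promoters of this length. The full estrogen response element, GGTCA and TGACC separated by any 3 bases, which holds a unit at both ends, was in none of the windows searched for the 7 genes and in 0.0639% of all promoters. The element shared by the progesterone and corticosteroid receptors, GNACA and TGTNC separated by any 3 bases, was likewise in none of them and in 0.387% of all promoters. These matches are descriptions of short windows and bear on no binding.

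Levels are given in CPM, the reads of a gene scaled to the library's TMM-adjusted total, and a gene was called when the edgeR quasi-likelihood test gave a Benjamini-Hochberg adjusted p below 0.05 over all 16465 genes. Library totals ran from 75654191 to 108665407 reads. The 8 epithelial markers (Epcam, Cdh1, Krt8, Krt18 and others) summed to 3882 to 4676 CPM in WT and 3414 to 4186 CPM in KO. In both treatments Epcam, Krt18 and Grhl2 were called lower in KO and Esrp1 higher, and 4 were not called in both. Over all genes 30.8% were lower and 34.1% higher in both treatments. The 8 uterine identity genes summed to 295 to 331 CPM in WT and 180 to 223 CPM in KO. Of these 8 genes, Pax8 and Emx2 were lower in KO (means without estrogen 236 and 59.9 CPM in WT, 68.9 and 36.5 in KO) and Foxa2 higher (1.80 and 65.5 CPM), while Hoxa10 had 8 reads, Hoxa11 10 and Hoxa13 0 over all 12 libraries. The genotypes differed far beyond the receptors. The 6 basal and squamous markers summed to 8.60 to 11.3 CPM in WT and 4677 to 11951 CPM in KO, the 4 ciliated cell markers to 0.0765 to 0.266 CPM in WT and 493 to 934 CPM in KO, and the 5 immune markers to 255 to 474 CPM in WT and 100.3 to 187 CPM in KO. Most of the immune sum was Cd68, with means of 282 CPM in untreated WT and 111 in untreated KO. Csf1r stood at 31.3 CPM in untreated WT and 0.309 in untreated KO. Ptprc stood at 6.41 CPM in untreated WT and had 0 reads in untreated KO. The 9 stromal markers summed to 16.0 to 20.3 CPM in WT and 38.5 to 44.8 CPM in KO, with Lum at 0 in KO. Most of that KO sum was Nr2f2 and Vim, the only stromal markers called higher, whereas the medians of the 7 tested were -1.14 without and -1.67 with estrogen (log2 fold change) and Dcn was called lower with estrogen. The smooth muscle and endothelial lists reached at most 3.52 and 2.86 CPM. The part of these shifts in the receptor results was not tested, and in bulk RNA fewer cells of a type cannot be told apart from less RNA per cell.

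KO against WT asks how the receptors and their targets stood with and without Esr1. Esr1, Greb1, Pgr and Nr3c1 were lower in KO, Esr2, Gper1 and Susd3 were higher, and Nr3c2 was not called. The calls were the same without and with estrogen, 7 of 8 genes in each, 3 higher and 4 lower. Esr2 entered the test only through its reads in KO, so its call is no independent support. Over all genes edgeR called 71.7% without estrogen (37.7% higher, 34% lower) and 70.8% with it (36.7% higher, 34.1% lower). The 6 KO libraries lay fully apart from the 6 WT libraries for the same 7 genes, as they did for 65% of all genes (34% with KO above, 31% with KO below). The members' count is near that background. Their median log2 fold change was -0.50 without and -0.34 with estrogen, against 0.04 and 0.02 over all genes.

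**Figure D1:**
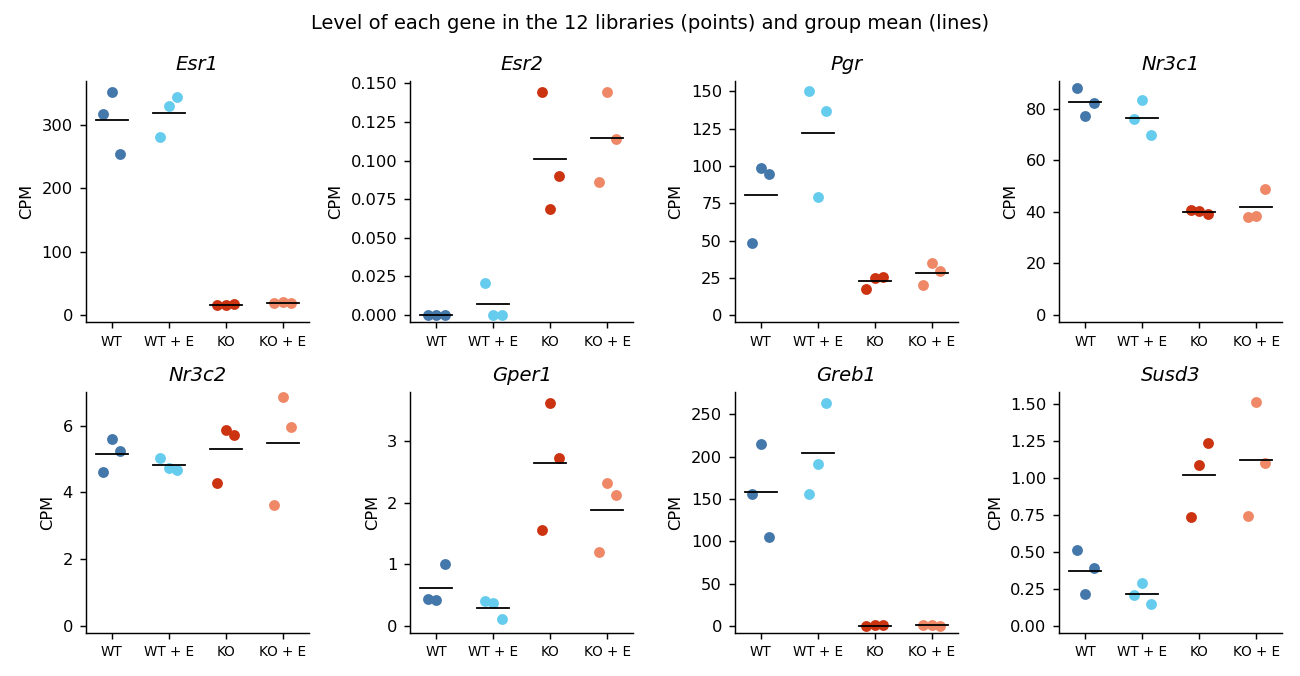
Level of each of the 8 genes in CPM (vertical axes, linear, one scale per gene) in the 12 libraries, with points for libraries and lines for the means of WT, WT with estrogen (E), KO and KO with estrogen. Esr1 sits at 253 to 352 CPM in WT and 15.9 to 20.3 in KO, Greb1 falls from over 100 CPM to under 1, and the Nr3c2 points of both genotypes overlap.

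Esr1, the targeted gene, stood at 318, 352 and 253 CPM in the untreated WT libraries and at 280.3, 330.3 and 344 in the treated ones. In untreated KO it stood at 16.5, 15.9 and 16.7 CPM, and in treated KO at 19.3, 20.3 and 19.5. The KO libraries were all low and close to each other, and no KO library came near a WT library. The log2 fold change was -4.23 ± 0.128 in untreated and -4.01 ± 0.126 in treated organoids (SE, n = 3 per group; edgeR adjusted p = 1.34e-09 and 2.25e-09). KO kept 5.32% and 6.19% of the WT level. The counts are summed over exons, so these reads do not show which part of the transcript remained.

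Greb1, a chromatin-bound cofactor of estrogen receptor alpha, had the largest difference of the 8 genes. It measured 155, 215 and 106 CPM in untreated and 156, 192 and 264 in treated WT. In KO its levels were 0.168, 0.388 and 0.405 CPM untreated and 0.404, 0.505 and 0.304 treated. All WT libraries were over 100 CPM and all KO libraries under 1 CPM. Untreated KO held 0.202% and treated KO 0.198% of WT (log2 fold changes -8.94 ± 0.417 and -8.97 ± 0.408, SE; edgeR adjusted p = 1.91e-08 and 1.96e-08). GENCODE M21 places an antisense gene, Gm48140, over 736 exonic bases of Greb1, and the counting ignored strand, so reads of that gene would count as Greb1.

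Pgr, whose product is the progesterone receptor, was lower in KO but was still read in every KO library. Its levels were 48.3, 98.4 and 94.9 CPM in untreated WT and 150.3, 79.3 and 137 in treated WT, against 17.8, 24.8 and 25.8 in untreated KO and 20.3, 35.3 and 29.6 in treated KO. WT libraries varied widely, with the lowest at 48.3 CPM and the highest at 150.3, yet the highest KO library was below the lowest WT library. Untreated KO held 28.3% and treated KO 23.2% of WT (log2 fold changes -1.82 ± 0.325 and -2.11 ± 0.327, SE; edgeR adjusted p = 4.33e-04 and 1.66e-04). Greb1 and Pgr, both known estrogen targets, thus kept very different shares of their WT levels, although the difference between the genes was not tested.

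Nr3c1, the receptor for glucocorticoids, had the smallest SE of the called genes. It measured 88.2, 77.3 and 82.3 CPM in untreated and 76.2, 83.3 and 69.6 in treated WT. In KO it stood at 40.7, 40.3 and 39.2 CPM untreated and at 38.0, 38.4 and 48.9 treated. KO held 48.5% and 54.7% of the WT level (log2 fold changes -1.05 ± 0.103 and -0.87 ± 0.103, SE; edgeR adjusted p = 4.15e-06 and 1.84e-05). Treated KO replicate 3 was the highest KO library and remained under every WT library.

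Nr3c2, the mineralocorticoid receptor and nearest relative of Nr3c1, was at a similar level in all groups. WT libraries ran from 4.61 to 5.60 CPM and KO libraries from 3.63 to 6.86, so the WT range lay inside the KO range. The log2 fold change was 0.04 (95% interval -0.44 to 0.52; edgeR adjusted p = 0.877) without and 0.19 (-0.29 to 0.67; edgeR adjusted p = 0.454) with estrogen. The result with estrogen depended on treated KO replicate 1, the lowest library at 3.63 CPM. Without it the value with estrogen was 0.41 and narrowly passed (edgeR adjusted p = 0.0496). Leaving out any single library did not make the value without estrogen pass.

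Esr2, which encodes estrogen receptor beta, was close to absent in every library. It had 0 reads in 5 of 6 WT libraries and 2 reads in treated WT replicate 1. The untreated KO libraries had 12, 6 and 8 reads and the treated ones 10, 16 and 12. All 7 libraries with any read had an even number, and mates were counted singly, so these reads stand for fewer fragments. Without estrogen the ratio of KO to WT was 8.81 against an assumed floor of 3 reads over the WT group. That floor takes reads as independent, and the ratio leaves out counting error in KO, so it is no firm bound. With estrogen the ratio was 15.3, with an exact 95% counting interval of 3.97 to 131 that covers counting error only and takes reads as independent. The edgeR adjusted p was 0.00142 without and 0.00348 with estrogen. Esr2 passed the filter on low counts only through KO libraries, so these p-values are no independent support for a higher level there. The fitted log2 fold change with estrogen, 3.73, became 6.44 without treated WT replicate 1, which leaves that WT group at 0 reads, so it is no bound. Its KO mean, 0.101 ± 0.0390 CPM without and 0.115 ± 0.0291 with estrogen (SD, n = 3), was far under the Esr1 level that remained in KO.

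Gper1, a G protein-coupled receptor reported to bind estrogen at membranes, was higher in KO. It measured 0.433, 0.425 and 1.01 CPM in untreated and 0.411, 0.363 and 0.113 in treated WT. In KO it stood at 1.56, 3.63 and 2.74 CPM untreated and at 1.20, 2.32 and 2.13 treated. The groups did not overlap, though the highest WT library, 1.01 CPM, was near the lowest KO library, 1.20 CPM. The log2 fold changes were 2.09 ± 0.509 and 2.66 ± 0.533 (SE; edgeR adjusted p = 0.00331 and 9.37e-04). An opposite-strand gene, 3110082I17Rik, overlaps the Gper1 locus in GENCODE M21 but shares 0 exonic bases with it, and its level was 16.3 ± 0.595 CPM in untreated WT and 17.97 ± 0.578 in untreated KO (SD, n = 3).

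Susd3, a sushi domain protein of the cell membrane, was higher in KO although it is known as an estrogen-raised gene in breast cancer cells. WT libraries stood at 0.510, 0.212 and 0.394 CPM untreated and at 0.206, 0.290 and 0.146 treated. KO libraries stood at 0.733, 1.09 and 1.24 CPM untreated and at 0.740, 1.51 and 1.10 treated. Every KO library exceeded every WT library, at levels near 1 CPM or below. The log2 fold changes were 1.46 ± 0.400 and 2.38 ± 0.417 (SE; edgeR adjusted p = 0.00663 and 3.63e-04). Greb1 and Susd3 therefore moved in opposite directions in the same libraries.

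**Figure D2:**
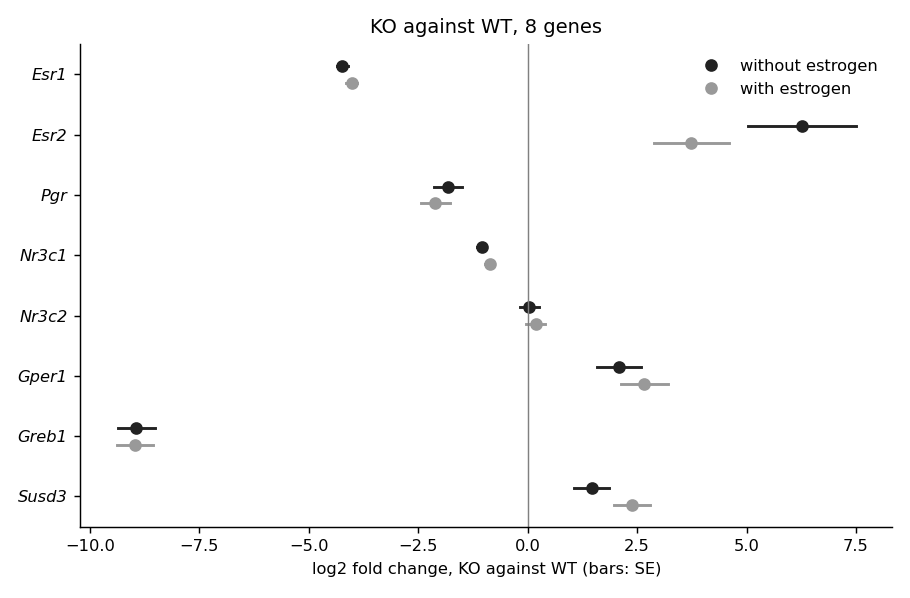
log2 fold change of KO against WT for the 8 genes without (black) and with (grey) estrogen, bars being the SE from edgeR. Greb1 lies near -9 and Esr1 near -4, Pgr and Nr3c1 are lower, Nr3c2 lies at 0.04 and 0.19, and Gper1, Susd3 and Esr2 are above 0, Esr2 on few reads.

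Between genes, levels were compared per kilobase of exon, using the union of GENCODE M21 exons of transcripts with a RefSeq match, which may differ from the authors' gene models. In untreated WT, Esr1 was first at 33.6 ± 5.49 CPM per kb (SD, n = 3), followed by Greb1 at 19.7 ± 6.83, Nr3c1 at 13.1 ± 0.863 and Pgr at 11.7 ± 4.06. Far below came Nr3c2 at 0.907 ± 0.0881, Gper1 at 0.245 ± 0.132, Susd3 at 0.218 ± 0.0879 and Esr2 at 0. The ranges of Greb1 and Nr3c1 overlapped, as did those of Greb1 and Pgr, of Nr3c1 and Pgr and of Gper1 and Susd3. With estrogen, the WT order was Esr1 at 34.8 ± 3.66 CPM per kb, Greb1 at 25.3 ± 6.79, Pgr at 17.7 ± 5.47 and Nr3c1 at 12.1 ± 1.08. The ranges of Esr1 and Greb1 overlapped there, as did those of Greb1 and Pgr and of Pgr and Nr3c1.

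The order was different in KO. In untreated KO the glucocorticoid receptor Nr3c1 led at 6.33 ± 0.120 CPM per kb, ahead of Pgr at 3.31 ± 0.634 and the remaining Esr1 reads at 1.79 ± 0.0440. Gper1 at 1.04 ± 0.409 and Nr3c2 at 0.933 ± 0.154 overlapped, and Susd3 followed at 0.597 ± 0.152, with a range that overlapped that of Gper1. Greb1 at 0.0398 ± 0.0164 and Esr2 at 0.0300 ± 0.0116 were last and overlapped. With estrogen Nr3c1 stood at 6.60 ± 0.983, Pgr at 4.12 ± 1.10 and Esr1 at 2.15 ± 0.0558, in the same order as untreated, and Greb1 at 0.0502 ± 0.0125 and Esr2 at 0.0341 ± 0.00867 remained last.

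Estrogen against none asks whether the hormone changed these genes within a genotype. None of the 8 genes was called in WT or in KO by edgeR, which called 0% of all genes in both comparisons. At an unadjusted p below 0.05, edgeR had 883 of the 16465 genes in WT and 411 in KO, among them 0 and 1 of the 8 genes. At that threshold a share of 0.05 of all genes is expected without any effect. DESeq2 called 63 genes in WT and 20 in KO, none of them among the 8. The replicate numbers were taken to pair the KO libraries, which rests on correlations between the libraries alone. With replicate within genotype as a block, edgeR called 0 genes in KO.

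The best-known estrogen-raised genes of the group had higher means in treated than in untreated WT, with libraries that overlapped. For Pgr in WT the log2 fold change was 0.60 (95% interval -0.10 to 1.30; edgeR unadjusted p = 0.0840, adjusted p = 0.947), with treated libraries between 79.3 and 150.3 CPM and untreated ones between 48.3 and 98.4. For Greb1 it was 0.36 (-0.25 to 0.97; edgeR adjusted p = 0.947). In both genes the treated and untreated WT libraries overlapped, and both intervals include 0. These intervals take the WT libraries as unpaired. Untreated replicates 1, 2 and 3 correlated with treated replicates 2, 3 and 1, but no fit used that match. In it both genes were higher in each treated library, which was seen afterwards and was not tested, nor counted over all genes. Esr1 itself was at 0.05 (-0.20 to 0.29), a narrower interval than those of its targets.

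Gper1 and Susd3 had lower means in treated WT. For Gper1 the 3 treated WT libraries, 0.113 to 0.411 CPM, lay under the 3 untreated ones, 0.425 to 1.01 CPM, as treated libraries did for 3.47% of all genes (8.47% lay apart in either direction). The log2 fold change was -1.07 (-2.24 to 0.11; edgeR unadjusted p = 0.0705, adjusted p = 0.947). For Susd3 it was -0.79 (-1.72 to 0.15; edgeR adjusted p = 0.947), and its groups overlapped. Neither result passed.

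In KO the gene with the smallest p of the 8 was Esr1, whose 3 treated libraries (19.3 to 20.3 CPM) lay above the 3 untreated ones (15.9 to 16.7 CPM), as treated KO libraries did for 3.43% of all genes (6.89% lay apart in either direction). Its log2 fold change was 0.27 (95% interval 0.02 to 0.52; edgeR unadjusted p = 0.0385), and it did not pass adjustment over all genes. Greb1 in KO was at 0.33 (-0.67 to 1.32), Pgr at 0.32 (-0.38 to 1.02), Gper1 at -0.49 (-1.55 to 0.57) and Susd3 at 0.13 (-0.70 to 0.97). Nr3c1, at 0.06 (-0.16 to 0.29), had the narrowest interval in KO. For Esr2, with 26 and 38 reads over the KO groups, no difference was detectable at this depth.

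**Figure D3:**
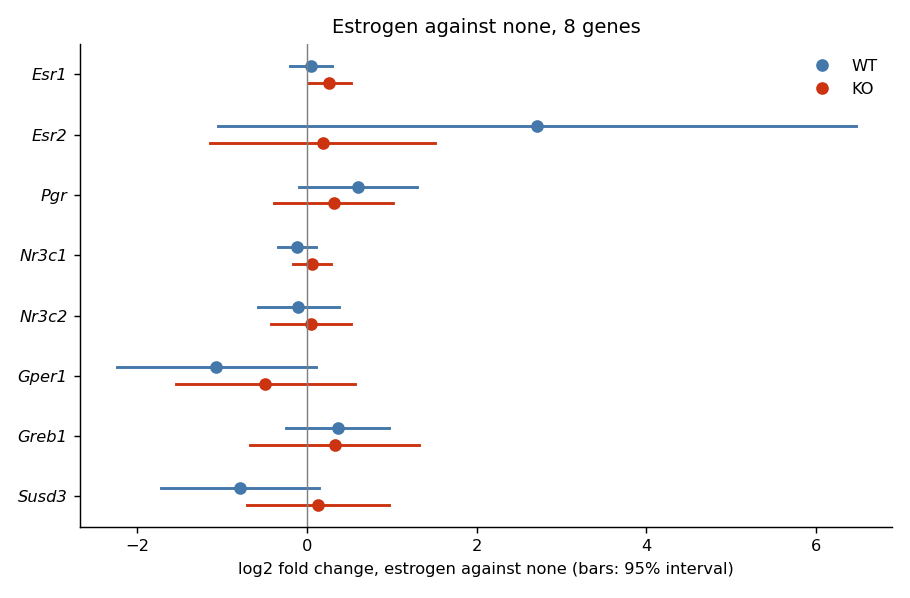
log2 fold change of estrogen against none for the 8 genes in WT (blue) and KO (red), bars being 95% intervals from edgeR. The intervals span 0 except that of Esr1 in KO (0.02 to 0.52), and that of Esr2 in WT rests on 2 reads in one library.

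The interaction of genotype and estrogen, the difference between both estrogen effects, was called for none of the 8 genes and for 0% of all genes by edgeR. At an unadjusted p below 0.05 there were 726 of the 16465 genes, none of the 8, where a share of 0.05 is expected without any effect. DESeq2 called 22 genes, none of the 8. The smallest p of the 8 belonged to Susd3, with a log2 difference of 0.92 (95% interval -0.33 to 2.17; edgeR unadjusted p = 0.134). Pgr was at -0.28 (-1.27 to 0.70) and Greb1 at -0.03 (-1.25 to 1.18).

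Within WT, the libraries themselves varied in Esr1, and Greb1 stood in the same order. Among untreated WT libraries replicate 2 was highest and replicate 3 lowest in both genes. Among treated ones replicate 3 was highest and replicate 1 lowest in both. Pgr was in another order, being lowest in replicate 1 of the untreated and in replicate 2 of the treated libraries. This order was noticed after the values were seen and was not tested.

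**Figure D4:**
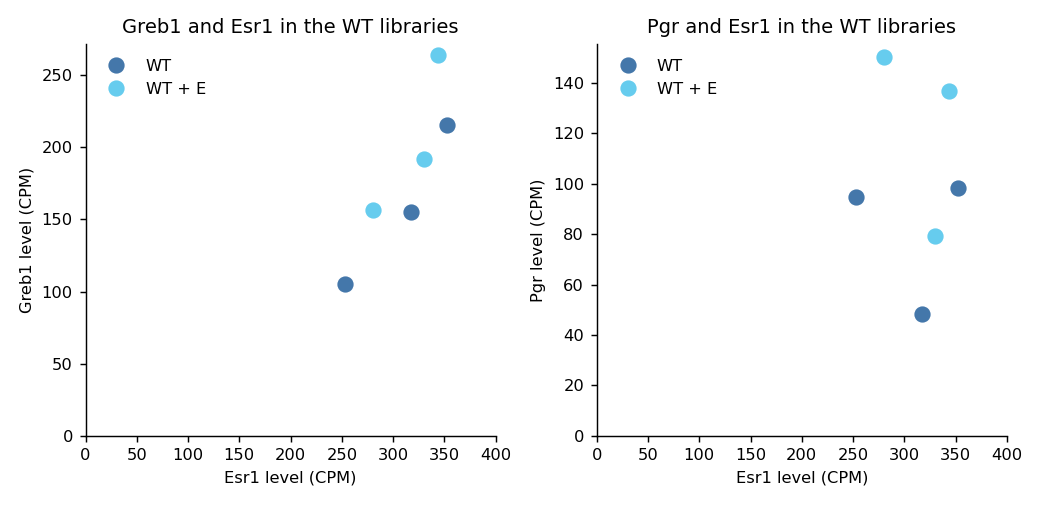
Level of Greb1 (left) and Pgr (right) against that of Esr1, all in CPM, in the 6 WT libraries (dark, untreated; light, treated with estrogen). Within each treatment the Greb1 points stand in the order of Esr1, the lowest being 106 CPM where Esr1 is 253, and the Pgr points stand in another order.

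The genes most like each member over the 12 libraries were ranked by Pearson correlation of log2 CPM, values that share library, scaling and above all the gap between genotypes. Esr1 was most like Preb (r = 0.999), Ets2 (0.999) and Mgat2 (0.999), and Greb1 most like Ankrd24 (0.999), Gfra4 (0.999) and Naxd (0.999). Pgr was most like Tmcc3 (0.984), Ctsa (0.982) and Cd81 (0.979), and Nr3c1 most like Riok3 (0.993), Cep170b (0.990) and Pxn (0.990). Among the genes higher in KO, Gper1 was most like Hspa4l (0.982), Dysf (0.979) and Irx5 (0.976), Susd3 most like Abhd17b (0.987), Snhg11 (0.983) and Cep43 (0.980), and Esr2 most like Rasip1 (0.983), Ckap2 (0.981) and Gp9 (0.981). Nr3c2, with no gap between genotypes, was most like Cemip2 (0.943), Prrg4 (0.910) and Slc31a1 (0.892), and these 3 genes were not called either.

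Other genes known as estrogen targets in uterus or breast went both ways. Of 35 listed, 33 were tested. In both treatments 12 were higher and 11 lower in KO, against 34.1% and 30.8% of all genes. The median log2 fold change was 0.07 without and 0.06 with estrogen, close to those of all genes. The water channel Aqp8 measured 2328 ± 236 CPM in untreated WT and 0.0452 ± 0.0595 in untreated KO (SD, n = 3), and the kallikrein Klk1 at 185 ± 18.9 against 0.141 ± 0.0669. Nrip1, a corepressor that binds the estrogen receptor, fell less, from 65.8 ± 4.00 in WT to 32.6 ± 1.33 CPM in KO. The mucin Muc1 was higher at 304 ± 17.2 CPM in KO against 78.9 ± 6.46 in WT, as were the transcription factor Myb (48.1 ± 6.88 against 8.85 ± 1.49) and the binding protein Igfbp4 (8.83 ± 3.22 against 0.254 ± 0.122). These 6 genes had edgeR adjusted p up to 9.56e-06 in either treatment. None of the 33 was called for estrogen in WT or in KO.

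Genes known to respond to the progesterone receptor in uterine epithelium were mostly higher in KO, where Pgr was lower. Of 11 listed, 9 were tested, 7 were higher and 0 lower in both treatments, against 34.1% and 30.8% of all genes. Areg is also among the estrogen targets, and Fkbp5 is also among the corticosteroid receptor targets and the chaperones. Their median log2 fold change was 2.69 without and 2.705 with estrogen. Hdc, which makes histamine, rose from 0.565 ± 0.139 CPM in untreated WT to 200.1 ± 14.8 in untreated KO, Acod1, an enzyme that makes itaconate, from 0.0978 ± 0.0199 to 13.4 ± 3.53, and the endocytic receptor Lrp2 from 0.00849 ± 0.0147 to 9.44 ± 4.54 (SD, n = 3; edgeR adjusted p up to 4.06e-06 in either treatment). Lrp2 had 2 reads in untreated and 14 in treated WT, and Calca, another of the 7, had 8 reads in WT and 63 in KO. Both passed the filter on low counts only through KO libraries, so their calls are no independent support. Ihh, the hedgehog ligand that is the classic epithelial target, had 68 reads over all 12 libraries and was not tested.

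Genes known to respond to glucocorticoid or mineralocorticoid receptors went both ways. Of 18 listed, 17 were tested, and 7 were higher and 4 lower in both treatments, against 34.1% and 30.8% of all genes. They had medians of 0.91 without and 0.38 with estrogen. The sodium channel subunit Scnn1a rose from 3.11 ± 0.265 CPM in untreated WT to 79.5 ± 11.4 in untreated KO, and Tsc22d3, a glucocorticoid-induced leucine zipper protein, from 1.53 ± 0.668 to 23.0 ± 1.69. The NF-kB inhibitor Nfkbia was also higher, at 284 ± 26.6 against 132 ± 20.4. Hsd11b1, which regenerates active glucocorticoid, was lower at 2.04 ± 0.0879 against 1137 ± 135 CPM, the kinase Sgk1 at 53.4 ± 7.25 against 432 ± 77.1 and the EGF receptor inhibitor Errfi1 at 56.4 ± 5.86 against 193 ± 52.5 (SD, n = 3; edgeR adjusted p of these 6 genes up to 1.09e-04 in either treatment).

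All 7 membrane steroid receptors listed were tested, and 2 were higher and 4 lower in KO in both treatments, against 34.1% and 30.8% of all genes. Paqr5, a membrane progestin receptor, fell from 237 ± 9.44 CPM in untreated WT to 31.8 ± 1.42 in untreated KO. Pgrmc2 was lower at 51.0 ± 1.19 against 93.0 ± 6.40 and Pgrmc1 at 143 ± 13.3 against 204 ± 3.12, both heme-binding progesterone receptor membrane components. Paqr6 was higher at 2.04 ± 0.443 against 0.276 ± 0.0877 CPM and Paqr8 at 21.96 ± 2.30 against 6.81 ± 3.67 (SD, n = 3; edgeR adjusted p of these 5 genes up to 0.00331 in either treatment).

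**Figure D5:**
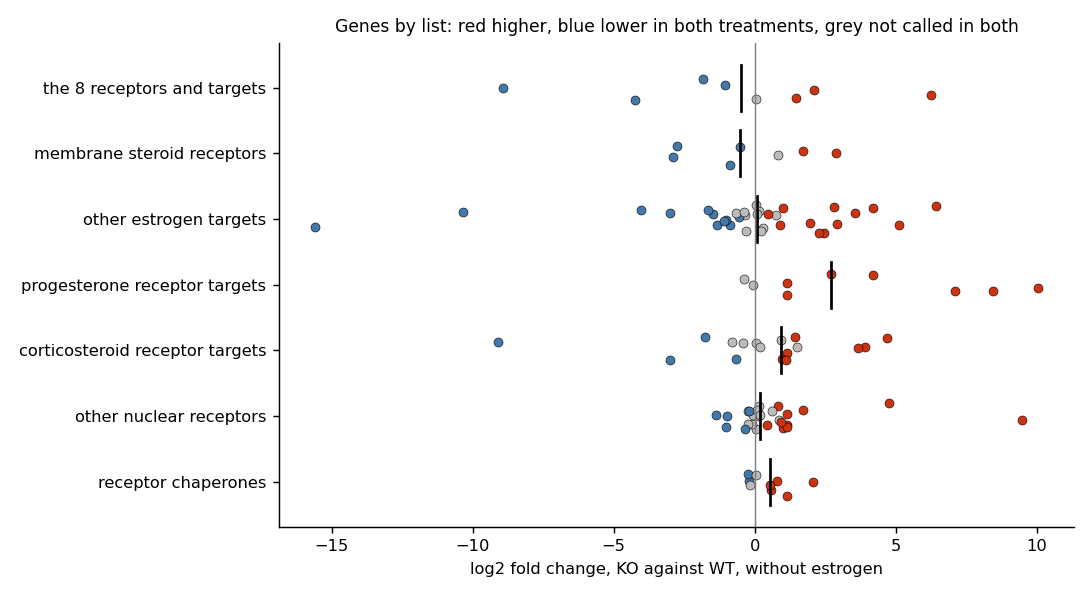
log2 fold change of KO against WT without estrogen (horizontal axis) for each tested gene of 7 lists, red if higher and blue if lower in both treatments, grey otherwise, with the list median as a black line and vertical scatter that carries no value. The other estrogen targets spread to both sides of 0 around a median of 0.07, and the progesterone receptor targets lie mostly above 0 with a median of 2.69.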

How the data were processed

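RNA of 12 libraries was measured. The authors deposited raw counts, whole reads per gene symbol, 1 file per library. Per the file headers these came from featureCounts 2.0.0 over exons, with no option for pairs, strand or multi-mapping reads, so mates were counted singly. The submitters' processing notes name featureCounts 2.0.3, build GRCm39, STAR 2.7.10b, Trim Galore 0.6.6 and FastQC 0.11.7. No annotation of that build was used here.

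Genes were kept by filterByExpr (minimum count 10, minimum total 15), scaled by TMM and fitted with robust quasi-likelihood models in edgeR 4.0.16 (R 4.3.3), 4 groups sharing the spread. Some genes passed the filter only through KO libraries, among them Esr2, Lrp2, Calca, Tff1, Nr2f1 and Esrrg. Their calls and their part in list counts are no independent support. Tests were two-sided, with Benjamini-Hochberg adjustment. SE is the absolute log2 fold change over the root of F, and intervals came from the t distribution with the fit's degrees of freedom. Code was tested on simulated data. DESeq2 1.42.0, other scalings, filters, blocks and left-out libraries were alternatives. The members and lists were chosen with earlier results of these data known. Named list genes are up to 3 per direction with the smallest p, and the genes most like each member are the 3 with the highest correlation over 12 libraries. Some genes, such as Fkbp5, Areg, Rara and Nr2f2, stand in several lists, so the lists are not separate readouts. The antisense neighbours were added after values were seen. A gene that the rule names is not reported here.

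Libraries of a group differed by more than counting noise (chi-square per degree of freedom 46.5 to 305). Deviations of same-numbered treated and untreated libraries correlated by 0.57, 0.50 and 0.41 in KO, which was taken as pairing, and by -0.16, -0.16 and -0.39 in WT, which was not. Differently numbered WT libraries also correlated, by 0.27, 0.46 and 0.40 for untreated replicates 1, 2 and 3 with treated replicates 2, 3 and 1. The pairing in KO therefore remains an assumption.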

Additional observations from a re-analysis of the deposited data

How the results depend on the processing

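The 7 genotype calls kept direction and threshold in all alternatives that tested them. Esr2 could not be tested with at least 1 CPM in 3 libraries or with only the groups compared, which left 6 calls. Without treated KO replicate 1, Nr3c2 was called too (8 calls with estrogen). The fitted log2 fold change of Esr2 with estrogen ran from 3.23 to 6.44, the highest without treated WT replicate 1. Leaving out single libraries turned the sign of uncalled values. The log2 fold change of Nr3c2 in KO against WT then ran from -0.038 to 0.17 without and from -0.0070 to 0.41 with estrogen. For estrogen against none, Esr1 in WT ran from -0.073 to 0.16, and in KO Esr2 from -0.028 to 0.52, Nr3c1 from -0.067 to 0.13, Nr3c2 from -0.14 to 0.28 and Susd3 from -0.15 to 0.36. For the interaction, Esr2 ran from -3.03 to 0.19, Nr3c2 from -0.047 to 0.37 and Greb1 from -0.33 to 0.19. The cause was not tested.

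No alternative called any of the 8 genes for estrogen or the interaction, but none matched WT libraries by the replicate numbers that correlated. Over all genes, DESeq2 called 63 for estrogen in WT, 20 in KO and 22 for the interaction, in place of 0. Leaving out single libraries gave 0 to 54, 0 to 4 and 0 to 6, the highest without treated WT replicate 1, untreated KO replicate 3 and treated WT replicate 1. With replicate within genotype as a block, edgeR called 7 genes in WT, 0 in KO and 4 for the interaction. This block pairs WT libraries by replicate number, which was not taken as pairing in WT. Its WT and interaction counts therefore do not stand for a paired test. With replicate as an additive block it called 11814 genes for KO against WT without and 11640 with estrogen, and 7 of the 8 genes in both. The block changed no other call on the 8 genes. With library size as the only scaling, the median of all genes in KO against WT went from 0.04 to 0.27 (log2) without and from 0.02 to 0.21 with estrogen, and 65.5% and 63.1% of calls were then higher in KO. Reads limit Esr2, with 66 over all libraries, and Susd3, with 788.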

Other observations

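Other nuclear receptors, outside the steroid group, also differed between genotypes. Of 28 listed, 26 were tested, and 10 were higher and 5 lower in KO in both treatments, against 34.1% and 30.8% of all genes. Rxra, the partner of many nuclear receptors, rose from 41.1 ± 1.72 CPM in untreated WT to 90.6 ± 6.17 in untreated KO, the thyroid hormone receptor Thra from 23.0 ± 0.771 to 51.1 ± 2.54 and Nr2f2 from 15.1 ± 0.719 to 33.0 ± 1.50 (SD, n = 3). Lower were Rora (15.0 ± 2.57 against 29.98 ± 1.25 CPM) and Nr4a2 (5.29 ± 0.923 against 13.8 ± 4.56 CPM). The estrogen-related receptor Esrrg had 0 reads in untreated WT and stood at 5.42 ± 0.306 CPM in untreated KO, whereas its relative Esrra was lower, at 42.8 ± 2.75 against 50.1 ± 1.12 CPM.

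Of 9 chaperones and cochaperones of steroid receptors, 5 were higher and 2 lower in both treatments, against 34.1% and 30.8% of all genes. The stress-inducible Hsp90aa1 rose from 363 ± 37.4 CPM in untreated WT to 1524 ± 229.8 in untreated KO, with the cochaperones Ptges3 from 172 ± 7.38 to 297 ± 27.8 and Stip1 from 137 ± 3.60 to 206 ± 5.66. Hspa8 (edgeR adjusted p = 0.0368 without and 0.0111 with estrogen) and Hsp90ab1 (edgeR adjusted p = 0.0496 and 0.0238) were lower, with log2 fold changes of -0.24 and -0.21 without estrogen.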
